A study of Homo sapiens with 16 samples.

Results

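The effect of TWEAK on histone H3 lysine 27 acetylation (H3K27ac) was examined in MDA-MB-231 cells in which the TWEAK receptor Fn14 had been knocked out (Fn14 KO). The 4 peak lists of these cells, 2 from TWEAK-treated and 2 from untreated cultures, were each trimmed to the 39544 peaks with the lowest q values, the length of the shortest list, and peaks sharing at least 1 bp were merged into 45223 regions. A region was called gained when both TWEAK lists and neither untreated list held a peak, and lost in the reverse case. By this rule 445 regions were gained (0.984%) and 566 were lost (1.25%), so 1011 of 45223 regions changed and the others did not meet the rule. With 2 lists a group the rule has no p-value, and the regions were therefore read against the same counts in the other 2 ways of pairing the 4 lists.

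TWEAK is a cytokine of the TNF superfamily, encoded by TNFSF12, and Fn14, encoded by TNFRSF12A, is its signalling receptor. Fn14 has no kinase or death domain of its own and recruits TRAF adaptors. Their recruitment stabilises the kinase NIK, which leads to processing of NFKB2 and to non-canonical NF-κB activity, and JNK signalling can be engaged as well. H3K27ac marks active promoters and enhancers, so a list of H3K27ac peaks gives the regulatory regions in use in a culture.

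MDA-MB-231 is an established triple-negative breast cancer line of mesenchymal character. The Fn14 KO cells were made with a CRISPR vector carrying guides against Fn14 and were identified by western blot and sequencing, per the methods of the study. The supplement lists the Fn14 KO primers among those for genotyping clones, and how many clones the cultures came from was not given in the sources used here. Cells of all groups were starved in serum-free medium for 8 h. The treated cultures then received TWEAK at 10 ng/ml for 48 h, with fresh TWEAK added at 24 h, and the untreated cultures did not. The comparison asks which regions respond to the ligand when its receptor is missing. The remaining 12 of 16 lists of the series, from MDA-MB-231 cells labelled control and from control and Fn14 KO Hs578T cells, a second triple-negative line, each TWEAK-treated and untreated with 2 lists a group, were used for reference only.

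The 4 Fn14 KO lists held 39544 to 46295 peaks as deposited. Trimming removed 14.6% of the untreated replicate 1 list, 4.25% of the TWEAK replicate 1 list, 3.51% of the TWEAK replicate 2 list and none of the untreated replicate 2 list. The median fold enrichment over input of the peaks kept was 5.1 to 5.79, against 5.68 to 6.43 in the 4 MDA-MB-231 control lists, and read depth is unknown because the files hold no reads. Among the start sites of 12 marker genes of mesenchymal breast cancer cells, such as VIM, AXL and ZEB1, 12 had a peak in all 4 lists. Of 12 genes used as luminal markers, ESR1, PGR, CDH1 and ESRP1 had no peak at their start sites in any list. In contrast, 6 of them had one in all 4 lists, namely AGR2, ERBB3, GATA3, GRHL2, SPDEF and TFF1. Their fold enrichments were 3.1 to 11.3 (the highest at TFF1). A peak list cannot show a small coding deletion. The start site of TNFRSF12A itself kept a peak in every list, with fold enrichments of 20.9 and 16.2 in untreated and 18 and 16.2 in TWEAK-treated Fn14 KO cells, and of 35.3, 35.1, 35.9 and 38.2 in the control cells. The start site of CD163, a scavenger receptor that can also bind TWEAK, had no peak in any of the 8 MDA-MB-231 lists.

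The sequences of the 2 strongest gained regions and of the lost regions ranked 2 and 3 (the bases of the lost region ranked 1 lie in a processed pseudogene and were not printed) are shown beside those of regions where the control and the Fn14 KO cells differed most, because the motifs of NF-κB and AP-1, the factors downstream of Fn14, were searched in all of them. Each run gives 200 bases of the plus strand of hg38, read 5′ to 3′ in lower case, with matches to the AP-1 motif TGANTCA or the NF-κB motif GGGNNTTTCC on either strand in capitals. Runs from gained and lost regions were taken from the region's centre, and runs from the regions that differed between cells were centred on the motif match nearest the centre.
Gained, intron of TIAM1 (chr21:31236581-31236780): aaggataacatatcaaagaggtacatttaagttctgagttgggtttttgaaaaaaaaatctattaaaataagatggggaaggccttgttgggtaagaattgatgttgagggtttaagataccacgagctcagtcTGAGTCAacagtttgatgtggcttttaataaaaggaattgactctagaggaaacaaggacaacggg
Gained, between genes near APLN (chrX:129632165-129632364): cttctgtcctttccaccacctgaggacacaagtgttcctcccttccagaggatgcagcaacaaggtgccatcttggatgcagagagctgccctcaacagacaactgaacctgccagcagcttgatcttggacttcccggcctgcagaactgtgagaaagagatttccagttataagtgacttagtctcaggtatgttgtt
Lost, between genes near KLHL1 (chr13:70817272-70817471): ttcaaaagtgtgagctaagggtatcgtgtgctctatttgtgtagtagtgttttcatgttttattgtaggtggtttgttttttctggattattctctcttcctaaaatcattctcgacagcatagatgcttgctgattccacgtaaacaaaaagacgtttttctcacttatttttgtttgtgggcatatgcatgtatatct
Lost, between genes near RFX4 (chr12:106527437-106527636): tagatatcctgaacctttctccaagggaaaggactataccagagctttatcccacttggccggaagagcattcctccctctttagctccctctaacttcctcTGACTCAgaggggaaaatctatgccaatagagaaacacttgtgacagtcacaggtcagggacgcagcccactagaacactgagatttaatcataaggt
Higher with TWEAK in control cells, intron of RFX8 (chr2:101464244-101464443): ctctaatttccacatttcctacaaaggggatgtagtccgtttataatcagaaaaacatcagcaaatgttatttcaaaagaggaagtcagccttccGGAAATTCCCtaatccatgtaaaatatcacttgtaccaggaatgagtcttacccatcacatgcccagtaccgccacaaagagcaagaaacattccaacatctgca
Higher with TWEAK in control cells, between genes near ASB7 (chr15:100687636-100687835): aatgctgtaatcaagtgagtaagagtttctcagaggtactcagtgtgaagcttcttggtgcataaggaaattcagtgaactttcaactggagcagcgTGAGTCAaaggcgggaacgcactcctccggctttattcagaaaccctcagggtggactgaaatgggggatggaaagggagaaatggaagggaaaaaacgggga
Higher with TWEAK in control cells, between genes near SELPLG (chr12:108617713-108617912): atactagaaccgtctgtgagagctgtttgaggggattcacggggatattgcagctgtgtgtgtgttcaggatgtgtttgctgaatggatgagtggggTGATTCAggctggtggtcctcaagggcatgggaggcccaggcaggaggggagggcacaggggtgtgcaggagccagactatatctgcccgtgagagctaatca
The runs near TIAM1 and RFX4 each hold 1 AP-1 match and those near APLN and KLHL1 hold neither motif. The run near RFX8 holds an NF-κB match, and the runs near ASB7 and SELPLG hold an AP-1 match. These runs were placed on a match, so they cannot be compared with the gained and lost runs in this.

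In the Fn14 KO cells the presence of peaks changed as often between lists of unlike grouping as between TWEAK and untreated. Of 45223 regions, 33166 (73.3%) had a peak in all 4 lists, 3261 in 3 lists and 5687 in a single list. TWEAK against untreated gave 1011 gained or lost regions. Setting both lists numbered 1 against both numbered 2 gave 1118 regions (2.47%), and the crossed pairing gave 980 (2.17%). The treatment count was thus 0.964 times the mean of the other pairings. In the control cells, where the same rule and list length gave 3102 gained (6.65%) and 2681 lost regions (5.75%), the treatment count was 13.5 times the mean of the other pairings, which gave 449 and 406 regions. The pairings are a description of these lists and not a test. The shared length of any pair of Fn14 KO lists showed no grouping by treatment either, with a Jaccard index (bases shared over bases covered by either list) of 0.746 between the untreated replicates, 0.765 between the TWEAK replicates and 0.755 to 0.773 between TWEAK and untreated lists.

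**Figure D1:**
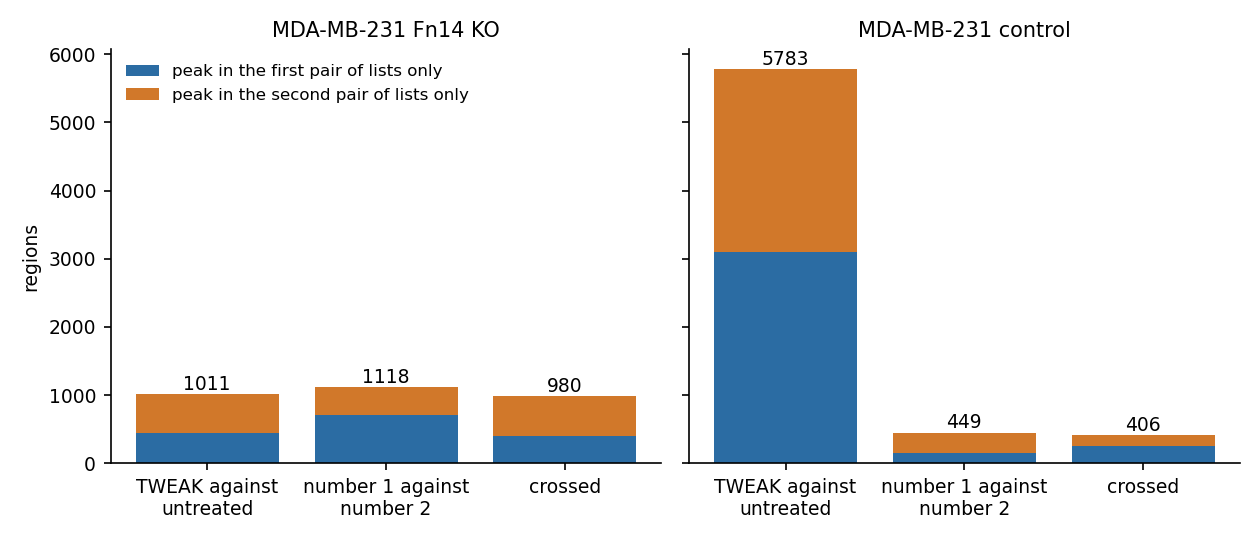
Regions with a peak in both lists of 1 pair and in neither list of the other pair (y axis, number of regions), for the 3 ways of pairing the 4 Fn14 KO lists (left) and the 4 control lists (right) of MDA-MB-231. Blue is the first pair named and orange the second. In Fn14 KO the TWEAK count of 1011 lies between 980 and 1118, and in the control cells 5783 regions stand against 449 and 406.

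The gained and lost regions were weak and narrow peaks close to the cut-off of the lists. The lower −log10 q of the 2 lists that held the peak had a median of 1.81 over gained regions (range 1.39 to 3.69) and of 1.96 over lost regions (1.05 to 7.05). Regions with a peak in all 4 lists had a median of 7.04 for their lowest −log10 q. The smallest −log10 q kept was 1.01 to 2.13 in the 4 lists, so many members lay just inside it. Median widths were 699 bp for gained and 703 bp for lost regions, against 1890 bp for regions in all 4 lists, and the median mean fold enrichment was 3.3 and 3.27 against 6.04. Absence was often a matter of the trimming. Of the 445 gained regions, 328 (73.7%) had a peak in the untrimmed untreated replicate 1 list, none had one in the untreated replicate 2 list, which was not trimmed, and 117 had none in either. Of the 566 lost regions, 100 had a peak in the untrimmed TWEAK replicate 1 list, 78 in that of TWEAK replicate 2, and 405 in neither.

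**Figure D2:**
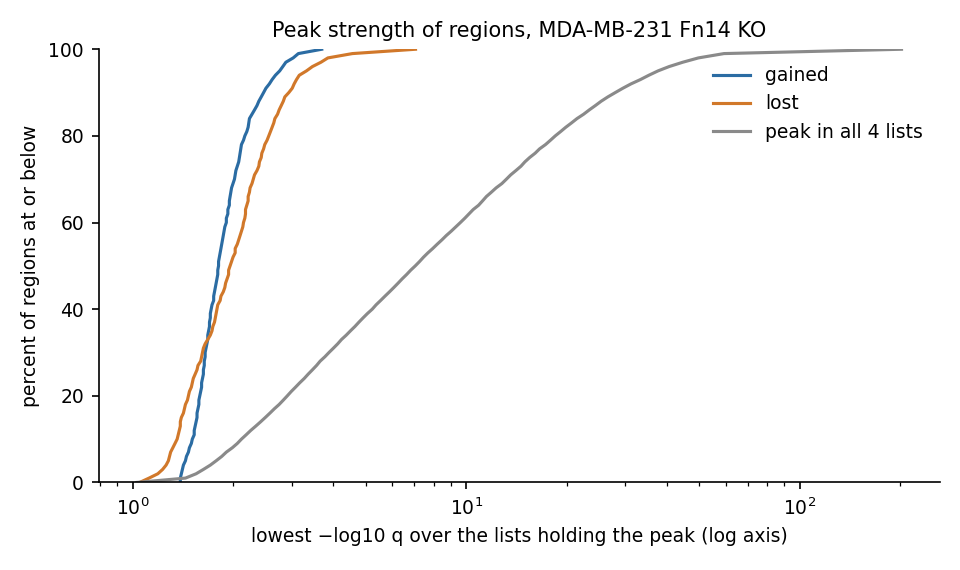
Cumulative share of regions (y axis, percent) by the lowest −log10 q among the lists that held the peak (x axis, log scale), for gained, lost and all-list regions of MDA-MB-231 Fn14 KO. The medians of the curves are 1.81, 1.96 and 7.04.

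Gained and lost regions lay mostly away from promoters. Of the gained regions 13.5% lay within 2 kb of a protein-coding transcript start, 35.5% in introns and 42.2% between genes, and of the lost regions 11%, 39.9% and 41.5%. These shares were close to those of the 2098 regions found in any other combination of 2 lists (12.3%, 36% and 43.7%) and far from those of regions in all 4 lists, of which 34.6% lay at start sites. The distance to the nearest region present in all 4 lists had a median of 14.4 kb for gained, 13 kb for lost and 14.1 kb for the other 2-list regions. Median GC content of the central 300 bases was 46.3%, 45% and 44.7%. The AP-1 motif occurred in the central 300 bases of 26.1% of gained, 31.4% of lost and 32.3% of the other 2-list regions, and in 25.4% of all 45223 regions. The NF-κB motif occurred in 1.57% of gained regions and 1.06% of lost regions, against 1.95% of all regions. In the regions gained in control cells it occurred in 11%, and in those lost in control cells in 0.783%. A motif match is a run of letters and not a bound site, and the centre of a broad region need not be its summit.

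The strongest gained region lay in an intron of TIAM1, an exchange factor for the GTPase Rac (chr21:31236329-31237032). Its −log10 q was 4.77 and 3.69 in the TWEAK lists, with fold enrichments of 4.51 and 4.18. In the untrimmed untreated replicate 1 list it held a peak of 1.69, and none of the 4 MDA-MB-231 control lists had a peak there. The next lay 22528 bp from the start of APLN, which encodes the peptide hormone apelin (chrX:129632102-129632428), with −log10 q of 3.67 and 3.73. This region had no peak in either untreated list before trimming, and in the control cells it was likewise found with TWEAK (2 lists) and not in untreated lists. A region 54230 bp from NPIPB11 (chr16:29342763-29343466) had 4.96 and 3.48, and 1 near ADGRG2, an adhesion receptor, had 3.67 and 3.23. Both had a peak in the untrimmed untreated replicate 1 list, of 2.07 and 2.06. A region in an intron of RASA3, a Ras GTPase-activating protein (chr13:114124932-114125810), gave 3.37 and 3.16, with 2.13 in that untreated list. The start site of PAX9, a developmental transcription factor, gave 3.29 and 3.07, with 2.11 in that list. In control cells the PAX9 region went the other way, with a peak in both untreated lists and in neither TWEAK list, and in Hs578T Fn14 KO cells it was gained again. Among the gained regions that neither untrimmed untreated list held, the strongest after the APLN region lay 973529 bp from DEFB115 (3.09 and 4.93), followed by regions in introns of MYOM1 (3.72 and 2.89) and of GDF5, a growth factor of the BMP group (3.02 and 2.86). Next came regions far from KCNT2 (3.78 and 2.85) and 68286 bp from SGO1, a cohesin protector gene (3.77 and 2.82). An intronic region of NFATC1, a calcium-regulated transcription factor (2.78 and 2.82), was also gained in the control cells.

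Lost regions reached higher values than gained ones. The strongest lay 598945 bp from TRIML1 (chr4:188738386-188738606), with −log10 q of 7.05 and 11.3 in the untreated lists and no peak in either untrimmed TWEAK list. It was called in both untreated lists and 1 TWEAK list of control cells. A region far from KLHL1 (chr13:70817085-70817658) gave 6.05 and 5.49, a region 55087 bp from RFX4, a transcription factor of the RFX family (chr12:106527156-106527917), 5.48 and 6.72, an intronic region of FABP6, a bile acid-binding protein (chr5:160199515-160199999), 5.37 and 7.48, and a region 87445 bp from ATXN7L3B (chr12:74449707-74450390) 5.11 and 5.28. Each of these 4 regions had a peak in all 4 MDA-MB-231 control lists and all 8 Hs578T lists. A peak in all 12 other lists was found for 25 of the 566 lost and 22 of the 445 gained regions. Absence from the 2 TWEAK lists of the Fn14 KO cells was set by the rule. The regions at the start of TPSG1, a mast cell tryptase (5.98 and 4.77), and in an intron of PTPRN2 (4.65 and 4.31) had no peak in any control list of MDA-MB-231. All 8 of the strongest lost regions were absent from the untrimmed TWEAK lists as well.

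Few members lay near genes of the Fn14 pathway or its known targets. Within 100 kb of the nearest of 201 genes in 16 lists there were 747 regions, of which 5 were gained (0.669%) and 7 lost (0.937%), against 0.939% and 1.14% of the 37473 regions within that distance of any protein-coding gene. The 5 gained regions lay near TNFAIP3, an NF-κB feedback inhibitor (2.96 and 2.23), IRF1, an interferon-regulated transcription factor (2.45 and 1.63), TNFRSF10D, a decoy receptor for TRAIL (1.59 and 1.51), and the ribosomal protein genes RPL13 (1.92 and 1.96) and RPS19 (2.25 and 1.61). Of these, the TNFAIP3 region, 50472 bp from its start (chr6:137815977-137816742), was gained in the control cells too, and had a peak of 1.44 in the untrimmed untreated replicate 1 list of the Fn14 KO cells. The 7 lost regions lay near RIPK1, a TNF receptor adaptor kinase (3.19 and 2.21), MAP3K14, which encodes NIK (2.16 and 1.95), the phosphatase gene DUSP5 (4.29 and 2.31), the plasminogen activator gene PLAT (3.07 and 2.41), the early response genes KLF6 (3.71 and 2.83) and EGR3 (2.24 and 3.79), and CDH1 (4.52 and 2.26). No list had more than 2 members in either direction. These counts leave out a lost region at the start of TNFSF12, a listed gene, because it was annotated to the read-through gene TNFSF12-TNFSF13.

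The start site of TNFSF12, the gene of TWEAK itself, was a lost region (chr17:7548834-7549450), picked out here after its values were seen and annotated to the read-through gene TNFSF12-TNFSF13. Its peak had −log10 q of 5.15 and 2.05 in the untreated Fn14 KO lists and fold enrichments of 4.51 and 3.25. It was absent from both untrimmed TWEAK lists. The control cells had the same pattern, with −log10 q of 3.63 and 3.21 in the untreated lists and no peak in the TWEAK lists. Of the 566 regions lost in Fn14 KO cells, 71 (12.5%) were also lost in control cells and 44 (7.77%) were gained there. Of the 8 Hs578T lists, 5 held the peak after trimming. The smallest −log10 q kept was 2.13 and 1.01 in the untreated Fn14 KO lists and 1.45 and 2.21 in the untreated control lists. In the TWEAK lists it was 1.57 and 1.39 in Fn14 KO and 1.93 and 2.07 in control cells. Whether the control TWEAK lists held a weaker peak there before trimming is not given here. The Fn14 KO lists were those used to call the region, so their part of the pattern was set by the rule.

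The regions gained or lost in Fn14 KO cells were looked up in lists that the rule had not used. Of the 445 gained regions, 51 (11.5%) were also gained in MDA-MB-231 control cells and 48 (10.8%) were lost there. Of the 566 lost regions, 71 (12.5%) were also lost and 44 (7.77%) were gained there. The overlaps made up 1.64% and 2.65% of the regions gained and lost in control cells. In Hs578T Fn14 KO cells 8 of the gained regions were gained and 6 lost, and 15 of the lost regions were lost and 6 gained. Among all regions 3.03% and 4.81% overlapped a region gained or lost in MDA-MB-231 control cells. For Hs578T Fn14 KO cells these shares were 0.619% and 0.553%, against 1.8% of gained and 2.65% of lost regions that changed there in the same direction. Of all regions, 73.3% had a peak in all 4 Fn14 KO lists. The matching shares among the other 2-list regions, which are closer in strength to the members, were not computed.

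Over the 12 other lists, gained regions held a peak in 44.7% of cases in TWEAK lists and 45.9% in untreated lists on average, a difference of −1.24 percentage points (exact two-sided permutation test within each of 3 cell groups, p = 0.333, adjusted p = 0.444 over 4 tests). Gained regions were thus not more frequent in TWEAK lists elsewhere. Lost regions held a peak in 46.3% and 50.5%, a difference of −4.24 points (exact permutation p = 0.00926, the smallest that 216 arrangements allow, adjusted p = 0.037). In MDA-MB-231 control cells their shares were 48.1% and 53.2% in untreated and 41% and 46.8% in TWEAK lists. They were 52.5% and 49.1% against 44% and 48.2% in Hs578T control cells, and 50.2% and 50% against 49.3% and 48.2% in Hs578T Fn14 KO cells. All 45223 regions moved in the same direction by −1.82 points (exact permutation p = 0.0463, not adjusted), and the other 2-list regions by −1.86 points. Whether lost regions moved further than these was not tested. The adjusted p for lost regions rose to 0.111 with the 8 control lists alone (where 0.0556 is the smallest exact p) and to 0.407 with untrimmed lists.

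**Figure D3:**
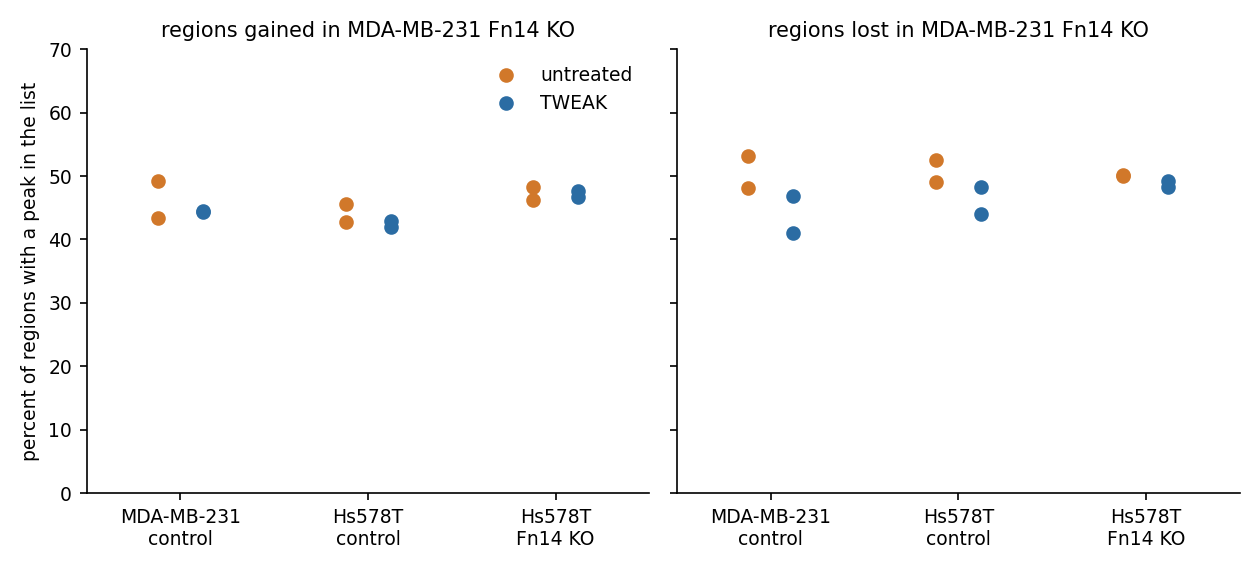
Share of the 445 gained (left) and 566 lost (right) regions of MDA-MB-231 Fn14 KO that held a peak in each of the 12 other lists (y axis, percent), 1 point a list, by cell group. For gained regions TWEAK and untreated points overlap in range, from 42% to 49.2%, and for lost regions the TWEAK points lie lower in each group.

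The same question was asked of peak height, over the 33166 regions present in all 4 lists, which leaves out every gained or lost region. Height was the log2 of the fold enrichment over input, averaged over a region's peaks by their length and centred on each list's median, and was compared with limma and Benjamini-Hochberg adjustment. In Fn14 KO cells TWEAK changed the height of 0 of 33166 regions at an adjusted p under 0.05 (0%). An unadjusted p under 0.05 was found for 1798 regions (5.42%), and the smallest adjusted p was 0.896. The effects had a standard deviation of 0.15 over regions and 95.4% lay within 0.3 of 0, and the 95% interval of a region's effect had a median half-width of 0.30. In the control cells 12006 of 31357 regions changed (38.3%), 5954 higher and 6052 lower, with a standard deviation of effects of 0.45. Without centring, the control cells gave 7034 higher and 3722 lower regions.

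Lists of like and unlike treatment differed by the same amount in Fn14 KO cells. The log2 difference in height between 2 lists had a standard deviation over regions of 0.20 between the untreated replicates and 0.21 between the TWEAK replicates. Between a TWEAK and an untreated list it was 0.20 to 0.22. In the control cells it was 0.20 and 0.18 between replicates and 0.44 to 0.49 between treatments.

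The regions with the lowest p-values in Fn14 KO cells are given as a description, since they were chosen for that p. At the start of FBXL2, an F-box protein gene (chr3:33277127-33278363), fold enrichment was 6.05 and 5.59 in untreated and 8.58 and 8.48 in TWEAK lists, a log2 difference of 0.61 ± 0.13 (SE, limma adjusted p = 0.896). The groups did not overlap there, as in 8611 of all 33166 regions (26%) by deposited fold enrichment, and 34.7% after centring. They did not overlap either at the start of SLC31A2, a copper transporter gene, with 4.43 and 4.12 against 6.81 and 6.23, and at the start of ZC3H14, with 9.05 and 6.39 against 10.6 and 10.8. Among lower regions, an intron of KCNH1, a potassium channel gene, had 19.8 and 16.4 against 12.5 and 11.8 (log2 difference −0.50 ± 0.10). The start of DNA2, a helicase-nuclease, had 12.7 and 11.5 against 8.57 and 7.49, and that of the kinase gene MAP3K2 had 19.1 and 17.2 against 13.7 and 11.8. None of these passed the adjusted threshold, and none of their genes is in the gene lists used here. The lists hold chosen genes only, and that for JNK and MAPK signalling has MAP3K5 and MAP3K7 but not MAP3K2. Leaving out the TWEAK replicate 1 list, which leaves 1 TWEAK list, brought 63 regions past the threshold, KCNH1, DNA2, MAP3K2 and ZC3H14 among them, and leaving out each other list brought 11 to 22.

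A single region differed by over 1 on the log2 scale, and a single list set it. At the region 944 bp from the start of HBB, the beta-globin gene (chr11:5224938-5226127), fold enrichment was 24.5 in untreated replicate 2 and 2.94 in untreated replicate 1, against 2.97 and 3.65 in the TWEAK lists (log2 difference −1.31 ± 0.57, limma adjusted p = 0.908). It was picked out after its values were seen. Without centring this region alone passed the threshold, at an adjusted p of 3.17e-07. Without untreated replicate 2 its log2 difference was 0.33 (adjusted p = 0.903), and without any 1 of the other lists it passed the threshold, with differences of −2.95, −1.12 and −1.49.

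The height changes that TWEAK made in control cells were not seen in Fn14 KO cells, and the difference between the cells was itself tested. Over the 29150 regions present in all 8 MDA-MB-231 lists, the TWEAK effect differed between Fn14 KO and control cells in 7176 (24.6%; limma interaction, adjusted p under 0.05), with 3341 higher and 3835 lower in Fn14 KO relative to control. Without centring 4985 regions passed, 1053 higher and 3932 lower, where the median over all regions moved to −0.13. In 6897 of the 7176 regions (96.1%) the effect was larger in size in the control cells, with a median absolute effect of 0.65 against 0.10 in Fn14 KO. The 5648 regions called higher in control cells had a median log2 effect of 0.54 there and of −0.03 in Fn14 KO, where 5% to 95% of them lay between −0.22 and 0.23. The interaction was called in 3685 of them (65.2%). The 5828 regions called lower had medians of −0.52 and −0.02, and 3105 (53.3%) passed the interaction. Among the 17675 regions not called in control cells, 386 (2.18%) passed it. Effects in Fn14 KO and control cells correlated with Pearson r = 0.012 over the 29150 regions, given as a description since neighbouring regions and common lists are not independent points.

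**Figure D4:**
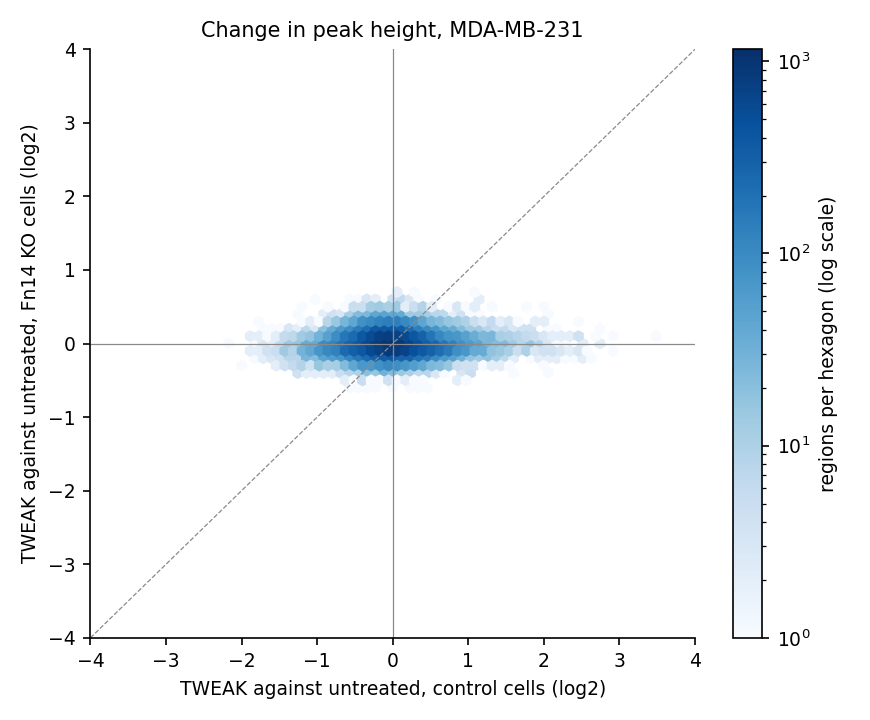
Log2 difference in peak height, TWEAK minus untreated, in control (x axis) and Fn14 KO cells (y axis) for 29150 regions. Shade gives regions per hexagon on a log scale, the dashed line marks equal effects, and the cloud extends along the control axis with a standard deviation of 0.15 in the Fn14 KO fit against 0.45 in the control fit.

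Presence gave the same picture for the regions that control cells gained. Of the 3102 regions gained in control cells, 26.7% and 23.7% held a peak in the untreated Fn14 KO lists and 24.5% and 25.6% in the TWEAK lists, so the groups overlapped. Of the 2681 regions lost in control cells, 62.6% and 55.7% held a peak in the untreated and 59.2% and 54.8% in the TWEAK lists. Among all regions of the control lists the shares were 77.3% to 79.7%.

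The region with the lowest interaction p-value lay in an intron of RFX8 (chr2:101462723-101466143). Its fold enrichment rose from 6.44 and 6.92 to 40.5 and 42.6 in control cells, and was 10.4 and 9.04 in untreated and 8.33 and 7.6 in TWEAK-treated Fn14 KO cells (interaction −2.77 ± 0.13 SE, limma adjusted p = 3.23e-09). The region between genes near SELPLG, the gene of a selectin ligand (chr12:108615902-108618445), was at 4.27 and 4.74 in untreated and 52.9 and 52.8 in TWEAK-treated control cells. In Fn14 KO cells it was at 4.7 and 5.09 in untreated and 5.97 and 4.31 in TWEAK lists, which overlap. Regions near ASB7, PICALM, a clathrin assembly protein gene, and TNFSF10, the gene of TRAIL, had control effects of 2.80, 2.45 and 2.69 and Fn14 KO effects of −0.02, −0.12 and 0.14. In these 5 regions the untreated Fn14 KO values lay above the untreated control values, as near TNFSF10, with 7.38 and 5.72 against 3.85 and 4.26, except that near SELPLG the ranges overlapped.

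Of 23 regions near the Fn14 receptor, its ligand and its adaptors that could be tested, 0 changed with TWEAK in Fn14 KO (limma adjusted p under 0.05), the largest absolute log2 effect was 0.31 and the median 0.04, beside −0.01 over all regions. In control cells 10 of 21 changed (47.6%), beside 38.3% of all regions. At the start of TRAF2, an adaptor of Fn14, fold enrichment was 7.85 and 6.22 in untreated and 7.9 and 7.39 in TWEAK-treated Fn14 KO cells, and 6.99 and 8.2 against 21.9 and 23.9 in control cells (interaction −1.31 ± 0.14, adjusted p = 6.96e-06). A region 9658 bp from BIRC3, the gene of the ubiquitin ligase cIAP2, was at 5.65, 4.86, 5.25 and 4.68 in the Fn14 KO lists. For the canonical and non-canonical NF-κB genes 0 of 24 regions changed in Fn14 KO, with a largest absolute effect of 0.21. The start of NFKB2, the gene of the p100 precursor, was at 13.4 and 11.9 in untreated and 13.8 and 10.7 in TWEAK-treated Fn14 KO cells and at 18.4, 23.6, 38 and 31.4 in the control lists (interaction −0.62 ± 0.17, adjusted p = 0.011). That call was lost with quantile normalization (adjusted p = 0.0611) and with the highest value per region (0.0799). It was lost too without control TWEAK replicate 1 (0.0775) or Fn14 KO TWEAK replicate 2 (0.0551).

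Feedback inhibitors of NF-κB were the list with the largest share called in control cells, 16 higher and 6 lower of 26 (84.6%, beside 38.3% of all regions), and had 0 of 29 called in Fn14 KO with a median effect of 0.00. A region 53663 bp from TNFAIP3, which encodes the deubiquitinase A20 (chr6:137807471-137813551), was at 7.37, 6.83, 6.77 and 5.95 in the Fn14 KO lists (untreated, then TWEAK) and rose from 7.88 and 8.93 to 22.6 and 21.3 in control cells. The start of TNIP1, an A20-binding protein gene, was at 15.5, 13.1, 13.4 and 13.2 in Fn14 KO. Of 50 regions near chemokine and cytokine genes 0 changed in Fn14 KO, with a largest absolute effect of 0.28, and 31 of 48 changed in control cells (64.6%, beside 38.3% of all regions). The region 11737 bp from CXCL8, the gene of interleukin-8, was at 4.86 and 4.73 in untreated and 4.59 and 4.84 in TWEAK-treated Fn14 KO cells, which overlap, and at 4.71, 5.49, 14.1 and 16.9 in the control lists.

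In Fn14 KO cells 0 of 51 regions of the JNK and MAPK list and 0 of 59 of the AP-1 and small MAF list changed, against 21 of 49 (42.9%) and 22 of 54 (40.7%) in control cells, where 38.3% of all regions changed. A region 10306 bp from DUSP1, a phosphatase gene that limits MAPK signalling, was at 8.15, 6.36, 7.87 and 6.64 in Fn14 KO lists. At the start of FOS, an AP-1 subunit gene, control cells fell from 24.5 and 25.9 to 13.9 and 14.2 with TWEAK, and Fn14 KO cells were at 12.8 and 9.43 in untreated and 11.9 and 10.7 in TWEAK lists (interaction 1.04 ± 0.14, adjusted p = 4.89e-05). The untreated Fn14 KO values of FOS lay below those of TWEAK-treated control cells, by deposited values that were not centred. A lower untreated level in Fn14 KO was not particular to FOS. The start of REL was at 10.2 and 8.68 in untreated Fn14 KO against 19.1 and 20.2 in untreated control cells. Among ribosomal protein genes, untreated Fn14 KO values were lower at the start of RPS6, with 8.04 and 11.4 against 15.5 and 12.7. They were also lower in an exonic region 6739 bp from RPL10, with 28.4 and 23.8 against 55 and 54.9. At the start of RPS19 the values overlapped, with 16.3 and 13.1 against 14.4 and 17.2.

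Proteases, adhesion molecules and apoptosis regulators, which include known NF-κB targets, gave 0 called of 75 and 0 of 35 regions in Fn14 KO, against 32 of 68 (47.1%) and 19 of 35 (54.3%) in control cells, where 38.3% of all regions changed. The region 3521 bp from PLAUR, the urokinase receptor gene, was at 8.55, 7.71, 7.63 and 7.52 in Fn14 KO, and the start of ICAM1, an adhesion receptor gene, at 4.98, 4.05, 4.32 and 3.81. An exonic region of CFLAR, the gene of the caspase-8 inhibitor c-FLIP, was at 16.1 and 14.8 in untreated and 15.5 and 13.6 in TWEAK-treated Fn14 KO cells, and rose from 18.7 and 22.7 to 59.6 and 58.9 in control cells (interaction −1.46 ± 0.13, adjusted p = 1.05e-06). Over all 16 lists 0 of 576 regions changed in Fn14 KO, with a median effect of −0.03 and a largest absolute effect of 0.43, at a ribosomal protein gene.

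**Figure D5:**
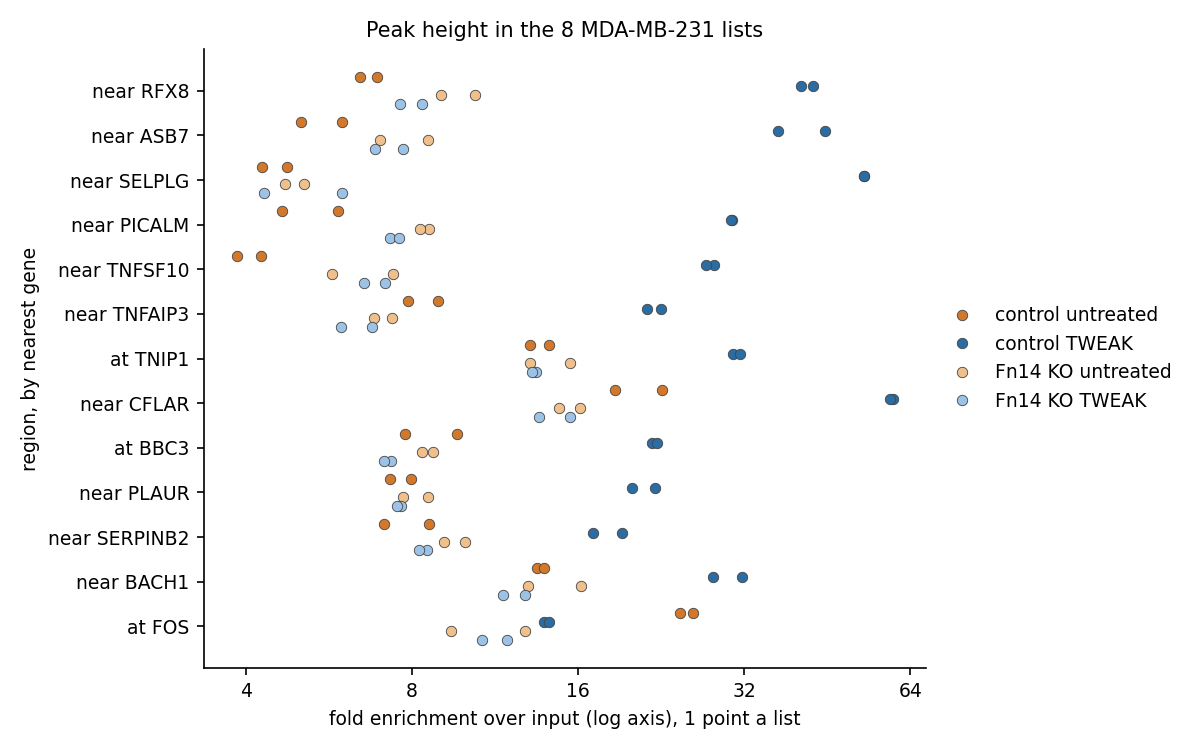
Fold enrichment over input (x axis, log scale) in each of the 8 MDA-MB-231 lists at 13 regions named by their nearest gene, chosen by the lowest interaction p-values overall and in 4 gene lists. In 12 of them the TWEAK-treated control lists stand to the right of all others, at FOS they stand to the left of the untreated control lists, and the 4 Fn14 KO points lie close together throughout.

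NAMPT, the rate-limiting enzyme of NAD salvage and a dependency gene of the study, had no changed region in Fn14 KO cells. At its start site fold enrichment was 19 and 18.7 in untreated and 16.3 and 18.6 in TWEAK-treated Fn14 KO cells, and 27, 27, 24 and 20.1 in control cells. Upstream, a region 26268 bp from the start (chr7:106312234-106315377) was at 16.2 and 13.2 against 14.1 and 12.6 in Fn14 KO, which overlap, and rose from 13.8 and 16.8 to 30 and 29.2 in control cells (interaction −0.94 ± 0.13, adjusted p = 7.27e-05). A second, 91000 bp away (chr7:106376966-106378909), was at 3.24 and 3.7 against 3.68 and 3.12 in Fn14 KO, and at 2.8, 3.1, 6.94 and 8.42 in the control lists. The start of ITGAV, an integrin subunit gene, was at 10.5 and 9.2 against 9.49 and 8.08 in Fn14 KO, and that of MAFG, a small MAF factor, at 17.9 and 16.3 against 16.6 and 14.1. The start of KIF18A, a mitotic kinesin gene, had a highest peak of 10.6 and 10.5 in untreated and 12 and 11.3 in TWEAK lists. The start of RELB gave 23.8, 30.3, 29.6 and 23.8. IL32, the gene of a proinflammatory cytokine that neighbours TNFRSF12A, had a peak at its start in both TWEAK lists of the control cells, with fold enrichments of 7.59 and 7.6. In Fn14 KO cells it had a peak in untreated replicate 1 alone, of 3.1, and none in either TWEAK list.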

How the data were processed

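H3K27ac ChIP-seq peak lists of 16 samples, 2 a group, were used, grouped by the submitters' labels. Per the study's methods, the authors removed adaptors, aligned the reads (Bowtie2, hg38), ran MACS2 on each sample with its input subtracted, and removed blacklisted regions. Tool versions were not given in the sources used here. The deposited columns hold a score (10 times the −log10 q), the fold enrichment over input (a ratio), the −log10 p and the −log10 q. Read depth is not in the lists, so the counting error of a peak is unknown, and a peak missing from a list can lie just under the threshold.

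Lists were cut to 39544 peaks by −log10 q and peaks sharing 1 bp were merged. Heights were fitted with limma 3.58.1 (R 4.3.3), with a trended prior and Benjamini-Hochberg adjustment at 0.05, and shares were compared by exact permutation within cell groups. Scripts were tested on simulated data. Genes were taken from GENCODE 44, and a start site is the 2 kb around a protein-coding transcript start. The study's methods describe the ChIP-seq replicates as biological. The members and gene lists were chosen with earlier results of these data known. Named regions were the 8 strongest gained and lost regions, those within 100 kb of a listed gene, the 8 strongest a direction absent from untrimmed opposite lists, up to 6 a direction shared with another experiment, the 5 lowest p-values a direction in the height fit and 5 of the interaction, the 3 lowest interaction p-values a gene list, and start sites of 8 genes. Not all named regions are printed. The alternatives tried are given in the closing section.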

Additional observations from a re-analysis of the deposited data

Results flagged for a closer look

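The TWEAK effect on peak height differed between Fn14 KO and control MDA-MB-231 cells by a test of the difference itself, in 7176 of 29150 regions (limma interaction, adjusted p under 0.05).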

How the results depend on the processing

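In Fn14 KO cells gained and lost regions numbered 492 with 20000 peaks a list, 522 with absence scored on untrimmed lists, 5287 with 500 bp bins and 3035 to 3654 with 1 list left out, which makes the rule easier to meet. With untrimmed lists 191 were gained and 794 lost. Their ratio to the mean of the other pairings was 0.678 to 0.965 over these settings where it could be computed. Control cells gave 3636 and 21971 with 20000 peaks and bins, at ratios of 5.95 to 22.4. For lost regions in other lists the difference was −5.7 points in 8 control lists, −5.62 without trimming, −3.33 with 50% of a region covered and −3.55 with 20000 peaks, each past the threshold no longer, and the cause was not tested. The TWEAK minus untreated share of control-gained regions in Fn14 KO lists was −5.07 points without trimming and −2.34 with 50% covered, and of control-lost regions −7.97 without trimming. Height calls in Fn14 KO numbered 1 without centring and 11 to 63 with 1 list left out, where the lone list is assumed to vary like the others. Keeping only regions above the median height tested fewer regions and gave 6807 calls in control cells and 4246 for the interaction.

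With the replicate block, Fn14 KO cells gave 0 height calls (limma, smallest adjusted p 0.786), control cells 13086 and the interaction 7313. Lists of the same number deviated together only weakly (r = 0.050 in Fn14 KO and 0.083 in control cells). The labels give only a replicate number, and whether lists of the same number shared a day or batch was not tested. Of values for named regions, 288 of 372 for presence, 107 of 118 for Fn14 KO height and 768 of 799 for the interaction kept their side of the threshold or their lists. A named region absent under a setting was not counted. With 20000 peaks a list, only 2 of the 54 named gained or lost regions remained, and neither met the rule there. With 500 bp bins 46 remained.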
